A study of Mus musculus with 165 samples.

Results

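The 9 genes described here make up the core of the mouse MHC class II presentation system. They are Cd74, H2-Aa, H2-Ab1, H2-Eb1, Ciita, H2-DMa, H2-DMb1, H2-DMb2 and H2-Oa, taken as the rows of the brain and liver count tables whose Ensembl identifiers carry these symbols. All 9 of 9 were found among the 55471 genes of each table, and all 9 passed the filter on low counts in both tissues. The data are poly(A) RNA-seq read counts per gene from brain and liver of male C57BL/6J/Ukj mice, an inbred strain, taken at 3, 9, 15, 24 and 28 months of age. The labels name no treatment, transgene or deletion at any age, and age is the one factor they give between the groups of a tissue. The brain gave 15, 16, 16, 17 and 18 libraries at the successive ages and the liver 16, 16, 16, 17 and 18, each from a different mouse, and 82 of 83 mice gave both tissues. Each tissue was prepared in 3 batches, called prep in the labels, and every batch held 4 to 7 libraries of every age. Library totals ran from 11500000 to 73400000 counts in the brain and from 5820000 to 57500000 in the liver. Neuron markers summed to between 1650 and 4930 counts per 1000000 counts of the library (CPM) in the brains and hepatocyte markers to between 20700 and 121000 CPM in the livers, while hepatocyte markers in the brains reached at most 23.2 CPM and neuron markers in the livers at most 55 CPM, so the libraries carry the markers of their labelled tissues.

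MHC class II molecules display peptides from ingested material to CD4 T cells. An alpha chain (H2-Aa) and a beta chain (H2-Ab1) pair in the endoplasmic reticulum and travel with the invariant chain, Cd74, which fills the peptide groove until cathepsins cut it away. The DM heterodimer (H2-DMa with H2-DMb1 or H2-DMb2) then exchanges the remaining Cd74 fragment for a peptide, and DO, whose alpha chain is H2-Oa, restrains DM, chiefly in B cells. Ciita is the coactivator that most class II genes require; it binds no DNA itself and is recruited by RFX, CREB and NF-Y factors on the X and Y boxes of class II promoters. Expression is constitutive in B cells, dendritic cells and some macrophages and can be induced by interferon gamma in others. In C57BL/6 mice the gene for the E alpha chain is a pseudogene, so the product of H2-Eb1 lacks its usual partner; the H2-Ea-ps row held no more than 3 counts in any library at 3 or 28 months in either tissue.

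In GRCm38, 7 of the 9 genes lie close together on chromosome 17: H2-Oa at chr17:34092340-34095234, H2-DMa at chr17:34119541-34139101, H2-DMb2 at chr17:34143307-34151555, H2-DMb1 at chr17:34153072-34160230, H2-Ab1 at chr17:34257689-34269419, H2-Aa at chr17:34282744-34287823 and H2-Eb1 at chr17:34305867-34316674. H2-Aa is on the minus strand and the other 6 are on the plus strand. Ciita lies at chr16:10480059-10528418 on the plus strand, and Cd74 lies on another chromosome. Some reads cannot be assigned with certainty, because H2-DMb1 and H2-DMb2 are near-identical copies and because exons of H2-DMa overlap Brd2, those of H2-Oa overlap BC051537 and those of Ciita overlap Dexi, each on the opposite strand. Exons of Cd74 overlap Mir5107 on the same strand. The strand setting of the authors' counting is not given in the sources used here.

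Promoter sequence was taken from RefSeq (GRCm38.p6) for 6 of the 9 members, as the window from 250 bases before to 50 after each gene's RefSeq start. These starts can differ from the gene spans given above. The H2-DMb2 stretch printed below lies inside that gene's span, and the H2-Oa stretch ends at the first base of its span. These windows are shown because the X and Y boxes are the known control elements of class II promoters. Letter patterns were searched on both strands, CNNGNAAC for the core of the X box and ATTGG for the Y box. X letters followed by Y letters within 30 bases on the gene's strand were present for 4 members (H2-Aa, H2-Eb1, H2-DMb1 and H2-Oa), against 193 of 32544 promoters (0.593%); the X letters alone occurred in 39.2% and the Y letters alone in 37.4% of promoters. The stretches below run 5′ to 3′ on the gene's strand, end at the Y letters and have the matched letters in capitals.
H2-Aa (chr17:34287867-34287931, minus strand): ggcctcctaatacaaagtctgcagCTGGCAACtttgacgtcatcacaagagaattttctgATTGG
H2-Eb1 (chr17:34305748-34305812, plus strand): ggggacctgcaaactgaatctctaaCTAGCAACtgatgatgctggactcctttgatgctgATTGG
H2-Oa (chr17:34092276-34092340, plus strand): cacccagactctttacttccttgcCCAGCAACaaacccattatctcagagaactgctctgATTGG
H2-DMb2 (chr17:34145099-34145163, plus strand): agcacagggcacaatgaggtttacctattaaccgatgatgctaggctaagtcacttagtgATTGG
The letters between the boxes number 28 in H2-Aa, 27 in H2-Eb1 and 28 in H2-Oa, and the Y letters start 48, 59 and 43 bases before the RefSeq start. The H2-DMb2 stretch holds the Y letters, 90 bases before its RefSeq start, without X letters in front of them. The H2-DMb1 stretch ending at its own Y letters, not printed, matched the H2-DMb2 stretch at 56 of 65 bases. A match to these letters is a description of the sequence and not a measured binding site.

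The members stood at different levels in the brain. Per length of transcript and library size (RPKM, which allows levels of different genes to be compared), the means at 3 months were 4.29 for H2-DMa and 3.64 for Cd74, then 1.3 for H2-Eb1, 0.897 for H2-Ab1, 0.772 for H2-Aa, 0.771 for H2-DMb1, 0.305 for H2-Oa, 0.195 for H2-DMb2 and 0.0234 for Ciita. At 28 months the order of the extremes was kept, with H2-DMa at 5.08, Cd74 at 4.90 and Ciita at 0.0224. The H2-DMa row thus stood above those of the classical chains. Its exons overlap those of Brd2, and the strand setting of the counting is not given. Reads of Brd2 may therefore be part of this level. Ciita was close to the limit of detection, with medians of 5 to 10 counts per library across ages and 0 counts in 2 of the 18 libraries of 28 months. In the liver the order was different. Cd74 led at 3 months with a mean of 67.8 RPKM, followed by H2-Eb1 at 19.4, H2-Ab1 at 16.6 and H2-Aa at 14.8, while H2-DMb1 at 2.74, H2-DMa at 1.76, H2-DMb2 at 0.586, Ciita at 0.324 and H2-Oa at 0.259 were far lower. These values include one 3-month liver, replicate 12, that stood far above the other 15, as described with the liver results; without it the mean of Ciita falls below that of H2-Oa per length.

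In the ageing brain, 4 of the 9 members were higher at 28 than at 3 months and none was lower: H2-DMa, H2-DMb1, H2-DMb2 and H2-Oa, the members of the DM and DO peptide-exchange step. The invariant chain and the classical chains were measured 1.14 to 1.37 times their 3-month level and did not pass the test. H2-DMa passed with a change inside this range, and its call did not hold in every fit, as given below. Whether the called members changed more than the others was not tested. Across all genes tested in the brain 28.3% passed this comparison and 16.3% passed as higher at 28 months, and the median log2 change was 0.27 over the members and 0.01 over all genes. Tests were edgeR's quasi-likelihood test with Benjamini-Hochberg adjustment over all genes tested, with age and prep as terms, and every p-value measures the spread between mice. In whole tissue, more cells of a type and more RNA per cell cannot be told apart.

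**Figure D1:**
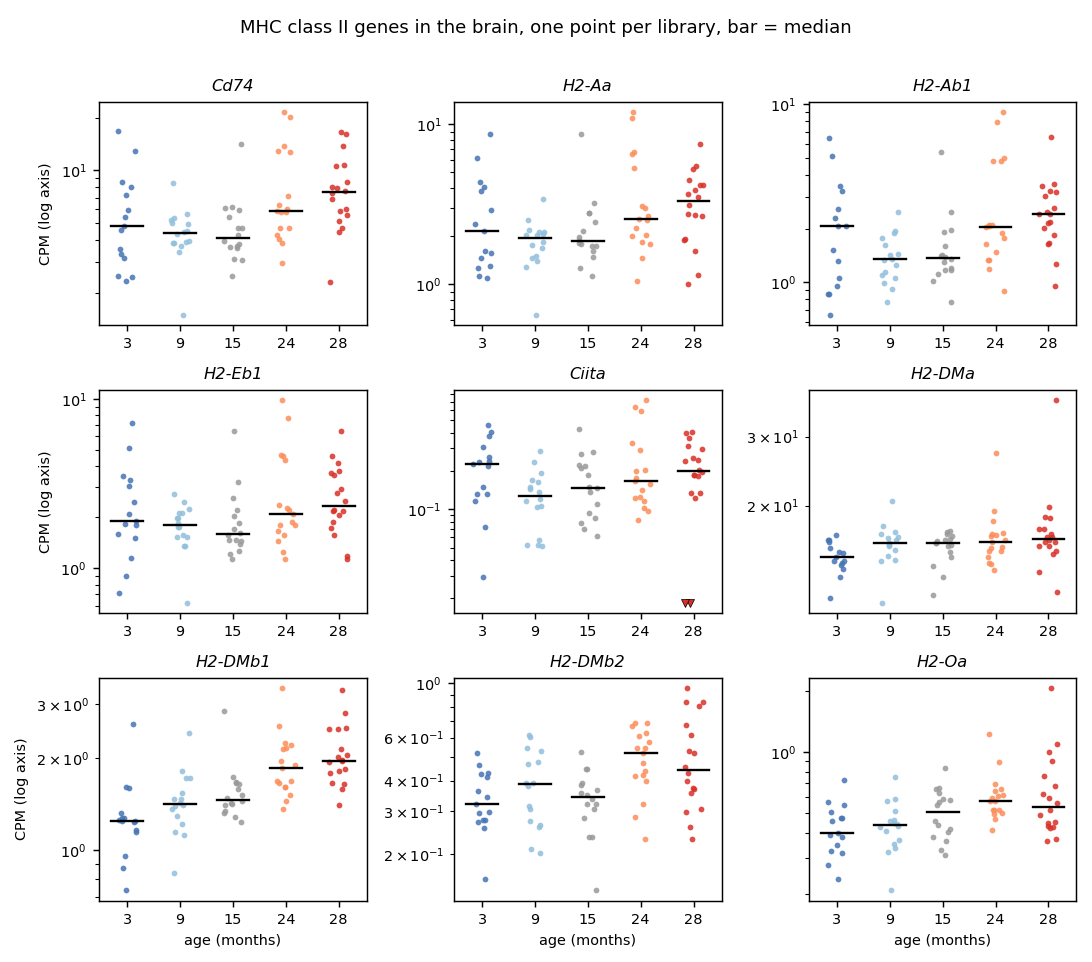
Level of each of the 9 members in every brain library (CPM, log axis) against age in months; each point is one library, bars mark the group medians, and triangles at the base mark the 2 libraries with 0 counts of Ciita. H2-DMb1 shifts upward as a whole group from 3 to 28 months, while Cd74 and the classical chains show a few high libraries at most ages.

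H2-DMb1, a beta chain of DM, was the member with the most 28-month brains above the 3-month median. Its levels were 0.736, 1.24 and 2.58 CPM (lowest, median, highest) at 3 months, 0.842, 1.41 and 2.42 at 9, 1.23, 1.46 and 2.84 at 15, 1.36, 1.85 and 3.39 at 24 and 1.40, 1.96 and 3.33 at 28 months. All 18 of the 28-month brains and all 17 of the 24-month brains lay above the 3-month median, although the ranges overlapped and 2 of the 18 exceeded the 3-month maximum. The change from 3 to 28 months was 0.68 ± 0.12 (log2, SE; 1.61-fold; edgeR adjusted p = 4.8e-06), and it stayed called without any one of the 33 libraries of these ages (0.65 to 0.77). Within the preps alone it was 0.64, 0.38 and 1.03, called in preps 1 and 3.

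H2-DMb2, the other beta chain, had fewer counts (medians of 12.5 to 19 per library). It measured 0.158, 0.321 and 0.521 CPM at 3 months, 0.202, 0.386 and 0.614 at 9, 0.142, 0.342 and 0.523 at 15, 0.231, 0.517 and 0.689 at 24 and 0.230, 0.441 and 0.958 at 28 months. The groups overlapped, with 14 of 18 brains of 28 months above the 3-month median and 7 above the 3-month maximum. The change to 28 months was 0.62 ± 0.16 (1.53-fold; edgeR adjusted p = 0.00253), with 0.67, 0.61 and 0.61 in the preps alone, none of which passed by itself.

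H2-Oa, the alpha chain of DO, changed to a like extent. Its levels were 0.236, 0.401 and 0.727 CPM at 3 months, 0.208, 0.437 and 0.751 at 9, 0.311, 0.505 and 0.831 at 15, 0.412, 0.576 and 1.22 at 24 and 0.365, 0.538 and 2.07 at 28 months. The ranges overlapped, and all 17 brains of 24 months and 16 of 18 of 28 months were above the 3-month median. The change was 0.56 ± 0.16 (1.48-fold; edgeR adjusted p = 0.00675), with 0.44, 0.57 and 0.71 in the preps alone, none of which passed by itself. H2-Ob, which encodes the partner beta chain of DO, was also higher at 28 months (0.45 ± 0.14, edgeR adjusted p = 0.00902, median 0.751 CPM at 3 and 1.00 CPM at 28 months), a call that was not made with only these ages fitted or in any prep alone.

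H2-DMa, the alpha chain of DM, had a coefficient of variation of 9.22% at 3 months, the lowest of the members at that age. It measured 11.6, 14.8 and 16.8 CPM at 3 months, 11.3, 16.0 and 20.6 at 9, 11.8, 16.0 and 17.2 at 15, 13.7, 16.1 and 27.3 at 24 and 12.0, 16.4 and 37.2 at 28 months. The groups overlapped, with 16 of 18 brains of 28 months above the 3-month median and 7 above the 3-month maximum. The change of 0.23 ± 0.08 (1.18-fold; edgeR adjusted p = 0.0191) did not hold in every fit: without 28 months replicate 15, which held the 37.2 CPM, it was 0.15 (adjusted p = 0.0544), and with only the brains of 3 and 28 months fitted it was 0.24 (adjusted p = 0.0882). In preps 1, 2 and 3 alone it was 0.01, 0.23 and 0.48, none of which passed. That brain was the shallowest of its tissue at 11500000 counts, had the highest H2-Oa level (2.07 CPM), the lowest neuron marker sum (1650 CPM) and the highest red blood cell marker sum (706 CPM), and held no count of Ciita; the part of these features in the H2-DMa value was not tested.

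Cd74 and the 3 classical chains had wide ranges within each age. Brain Cd74 was 2.34, 4.81 and 16.8 CPM at 3 months, 1.5, 4.38 and 8.43 at 9, 2.49, 4.12 and 14.2 at 15, 2.95, 5.86 and 21.5 at 24 and 2.31, 7.52 and 16.5 at 28 months. The ranges overlapped at all ages, with 15 of 18 brains of 28 months above the 3-month median and none above the 3-month maximum. The change from 3 to 28 months was 0.45 ± 0.25 (1.37-fold; edgeR adjusted p = 0.168). For H2-Aa it was 0.27 ± 0.28 (adjusted p = 0.482), for H2-Ab1 0.23 ± 0.27 (adjusted p = 0.548) and for H2-Eb1 0.18 ± 0.26 (adjusted p = 0.62), by the same edgeR test. Leaving out 1 brain moved these values to between 0.16 and 0.44 for H2-Aa, 0.09 and 0.4 for H2-Ab1 and 0.06 and 0.34 for H2-Eb1, the lowest without 28 months replicate 18 and the highest without 3 months replicate 5 (replicate 15 for H2-Ab1), and none was called. Median levels at 3 and 28 months were 2.14 and 3.33 CPM for H2-Aa, 2.06 and 2.40 CPM for H2-Ab1 and 1.9 and 2.34 CPM for H2-Eb1. Ciita gave 0.01 ± 0.27 (edgeR adjusted p = 0.988), from medians of 0.226 CPM at 3 and 0.200 CPM at 28 months.

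At 24 against 3 months 3 of the 9 members were higher (10.1% of all genes passed, 6.19% as higher), H2-DMb1 by 0.57 ± 0.12, H2-DMb2 by 0.55 ± 0.16 and H2-Oa by 0.50 ± 0.17; the edgeR adjusted p of H2-Oa, 0.0375, was 0.0517 without the brain of 3 months replicate 5. From 15 to 24 months Cd74 changed by 0.80 ± 0.25 (edgeR adjusted p = 0.125) and H2-Ab1 by 0.90 (adjusted p = 0.101), and none of the 9 passed (0.732% of all genes did). With the 4 age terms tested together, 6 of the 9 members differed at some age (20.6% of all genes did): Cd74, H2-Aa, H2-Ab1, H2-DMb1, H2-DMb2 and H2-Oa. For the remaining comparisons edgeR called 0 of the 9. At 9 against 3 months (0.315% of all genes called; median change -0.42 over the members) H2-Aa, H2-Ab1 and Ciita had an unadjusted p under 0.05, and neither DESeq2 nor limma's voom called any. At 15 against 3 months (0.871%; median -0.32) this held for H2-DMb1, which voom called and DESeq2 did not. At 24 against 15 months 6 of the 9 had an unadjusted p under 0.05, and DESeq2 called 2 and voom 1. At 15 against 9 months (0%) and 28 against 24 months (1.09%) no member had an unadjusted p under 0.05 and no tool called any.

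Markers of the choroid plexus, the secretory tissue of the ventricles, differed widely between brain libraries of the same age. The 5 choroid plexus markers summed to 46.7, 183 and 6420 CPM (lowest, median, highest) at 3 months, 68.3, 115 and 479 at 9, 37.5, 109 and 4690 at 15, 39.0, 90.3 and 4370 at 24 and 45.4, 112 and 5300 at 28 months, and none of the 5 differed between 28 and 3 months (median log2 change -0.50). The libraries of highest sum were 3 months replicate 5, 28 months replicate 12, 15 months replicate 14 and 24 months replicate 8, and 3 of these 4 also held the highest Cd74 of their age (16.8, 14.2 and 21.5 CPM). In 28 months replicate 12 no member was over 2 times its group's median. The second highest Cd74 of 24 months, 20.3 CPM, was in a brain outside these 4. Also outside them, 24 months replicates 9, 10 and 13 and 28 months replicate 18 each had 5 members over 2 times their group's median. Over 82 brains, on residuals after age and prep, the r of Cd74 to the choroid plexus score was 0.59. In an alternative chosen after seeing the data, with the choroid plexus score as a further term, 7 of the 9 members were higher at 28 than at 3 months (28.2% of all genes passed in this fit, 16.4% as higher): Cd74 by 0.76 (edgeR adjusted p = 0.0033), H2-Aa by 0.63 (0.029) and H2-Ab1 by 0.57 (0.0403) joined the 4 named above, and H2-Eb1 at 0.50 (0.0609) and Ciita at 0.14 did not pass.

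**Figure D2:**
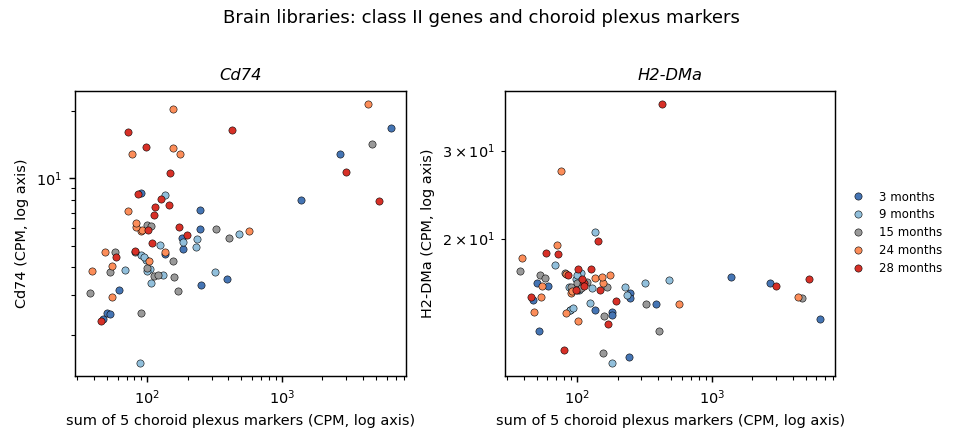
Cd74 (left) and H2-DMa (right; CPM, log axes) against the summed choroid plexus markers (CPM, log axis) in each of the 82 brain libraries, coloured by age. The 4 libraries of highest sum, 1 each from 3, 15, 24 and 28 months, have Cd74 levels of 7.93 to 21.5 CPM. The lowest of these, from 28 months, is close to the median of its age, 7.52 CPM, and the others are the highest of their ages.

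The brain genes whose variation was most like that of Cd74 were, over 82 libraries and 15006 genes, H2-Eb1 (r = 0.94), H2-Ab1 (0.92), H2-Aa (0.88), Islr (0.79) and Pcolce (0.78), the last an enhancer of procollagen processing. Cd74 and the classical chains thus moved together from mouse to mouse, and the other members did so less closely: r to Cd74 was 0.60 for H2-DMb1, 0.48 for Ciita, 0.22 for H2-DMa, 0.21 for H2-Oa and 0.18 for H2-DMb2. The r of Cd74 was 0.56 to the meningeal fibroblast score and 0.59 to the border macrophage score. These libraries share depth and dissection, so the values are descriptions.

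Markers of other cells also moved in the ageing brain. Of 8 microglia markers 7 were higher at 28 months and none was lower (median change 0.30), among them Aif1 (0.65 ± 0.17) and the surface lectin Siglech (0.55 ± 0.16); their sum went from 343, 366 and 418 CPM at 3 months to 370, 428 and 664 CPM at 28 months. Of 7 border macrophage markers 1 was higher, Cd163 by 0.50 ± 0.15, and the sums overlapped (7.07, 11.2 and 17.4 against 8.55, 11.2 and 15.5 CPM). Of 6 monocyte markers 4 were tested and 3 were higher, at sums of 0.428 to 1.46 CPM at 3 months and 1.08 to 6.75 CPM at 28 months. Of 10 B cell markers 5 were tested and 2 were higher, Cd22 by 1.67 ± 0.18 and Cd79b by 0.66 ± 0.25; the sum was 1.27, 1.94 and 2.68 CPM at 3 months and 1.3, 2.46 and 11.7 CPM at 28 months, led by replicate 2. Of 10 dendritic cell markers 7 were tested, 3 were higher and 1 lower, with Xcr1 at or under 3 counts in every library of 3 and 28 months and sums of 30 to 36.6 and 33.4 to 48.9 CPM. Of 6 meningeal fibroblast markers 3 were lower and none higher, and their sums were 39.5 to 137 CPM at 3 months and 37.6 to 126 CPM at 28 months. Of 4 red blood cell markers 3 were higher and none lower (median 1.06), at sums of 27.3, 68.1 and 214 CPM at 3 months and 32.2, 118 and 706 CPM at 28 months; the r of their score was 0.57 to Cd74 and 0.54 to H2-DMb1. The r to the microglia score was 0.43 for H2-Oa, 0.4 for H2-DMa, 0.2 for H2-DMb1, 0.16 for H2-DMb2 and 0.1 for Cd74, and the r to the B cell score was 0.48 for H2-DMb2 and 0.29 for Cd74. The part of these cell types in the class II changes was not tested.

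In the liver all 9 members were higher at 28 than at 3 months, by 2.93-fold (Ciita) to 6.31-fold (H2-DMb2). Many liver genes changed with age: 61.9% of all genes tested passed this comparison and 31.9% passed as higher. The median log2 change was 1.71 over the members and 0.01 over all genes. All 9 were higher at 24 than at 15 months (36% of all genes passed, 21.6% as higher) and at 24 than at 3 months (49% passed, 25% as higher). Prep 1 alone called fewer members in both comparisons, and prep 3 alone fewer at 24 against 15 months, with the counts given in the last section. With the age terms tested together all 9 differed at some age, as did 71.5% of all genes. At 9 against 3 months (4.69% of all genes called), 15 against 3 (7.32%), 15 against 9 (0.0514%) and 28 against 24 months (15.3%), edgeR, DESeq2 and voom each called 0 of the 9, and none had an unadjusted p under 0.05 in edgeR. At 15 against 3 months 13 to 16 of the 16 livers lay above the 3-month median of each member. The fit of only these ages called 1 member, and without 3 months replicate 12, a young liver of high levels described below, the changes were 0.5 to 1.02 and none passed (lowest edgeR adjusted p 0.071, H2-DMb1).

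**Figure D3:**
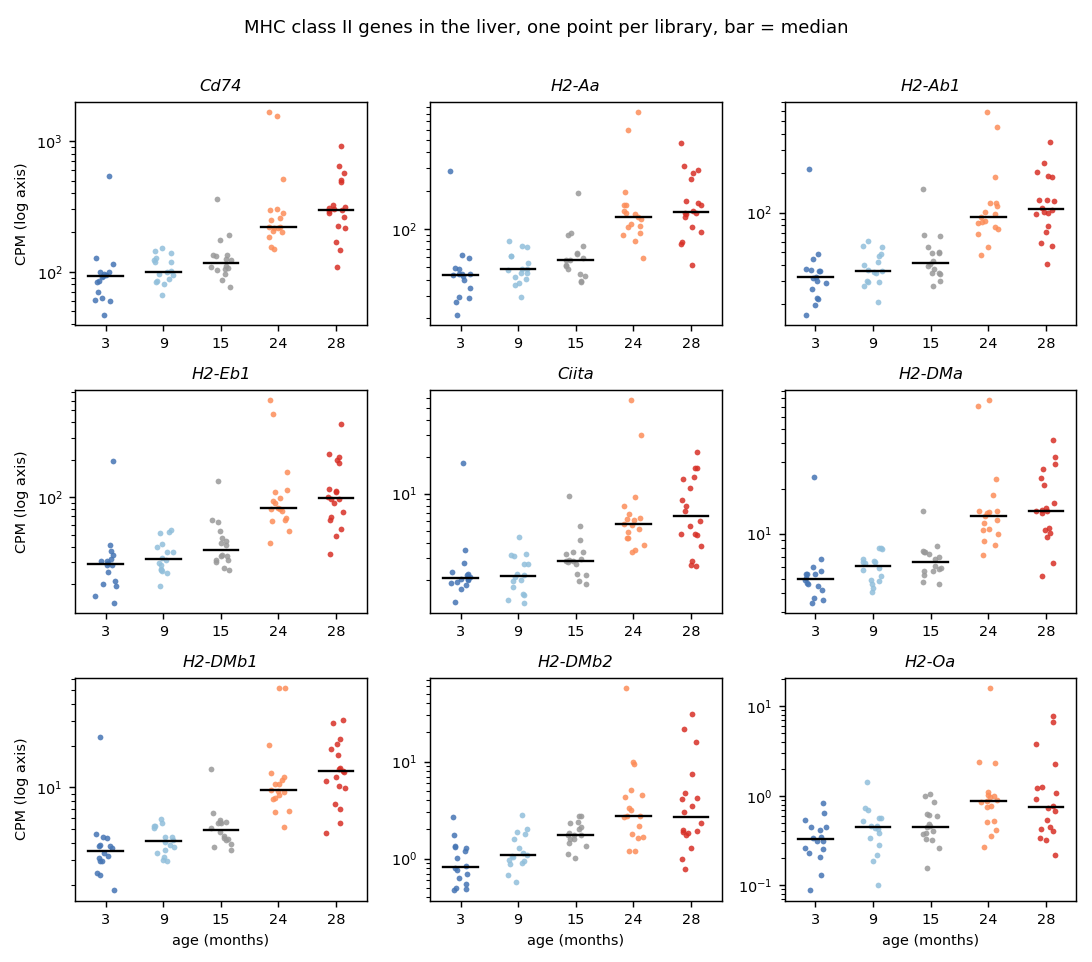
Level of each of the 9 members in every liver library (CPM, log axis) against age in months; each point is one library and bars mark the group medians. The groups of 24 and 28 months lie above the younger ages for every member, with single high libraries at 3, 15, 24 and 28 months.

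Cd74, the most abundant member, shows the pattern. Its levels in the liver were 46.8, 92.0 and 538 CPM (lowest, median, highest) at 3 months, 66.2, 100 and 151 at 9, 76.5, 117 and 363 at 15, 149, 220 and 1670 at 24 and 109, 299 and 925 at 28 months. Every liver of 24 and 28 months was above the 3-month median, and the ranges overlapped. Replicate 12 of 3 months, at 538 CPM, stood far above the next highest of its age, 127 CPM, a value that every liver of 24 months exceeded and the lowest of 28 months did not. The change from 3 to 28 months was 1.69 ± 0.30 (3.23-fold; edgeR adjusted p = 1.1e-06) and from 15 to 24 months 1.58 (adjusted p = 3.71e-05).

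The classical chains rose by nearly the same amount. H2-Aa measured 21.2, 43.7 and 283 CPM at 3 months, 29.2, 48.0 and 80.0 at 9, 38.5, 57.1 and 193 at 15, 59.3, 124 and 825 at 24 and 51.8, 136 and 475 at 28 months. H2-Ab1 went from 16.6, 32.1 and 215 CPM at 3 months to 40.4, 106 and 346 CPM at 28 months, and H2-Eb1 from 14.2, 29.3 and 195 to 35.1, 98.7 and 391 CPM. The ranges overlapped, and every liver of 24 and 28 months lay above the 3-month median of each chain. The changes to 28 months were 1.71 ± 0.30 for H2-Aa (edgeR adjusted p = 1.32e-06), 1.69 ± 0.30 for H2-Ab1 (adjusted p = 1.31e-06) and 1.83 ± 0.32 for H2-Eb1 (adjusted p = 1.05e-06).

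Ciita, the coactivator, rose with its target genes. Its liver levels were 1.31, 2.05 and 17.7 CPM at 3 months, 1.3, 2.12 and 4.43 at 9, 1.85, 2.84 and 9.62 at 15, 3.37, 5.65 and 57.8 at 24 and 2.60, 6.61 and 22.0 at 28 months. All livers of 24 and 28 months were above the 3-month median, and 1 of 18 at 28 months exceeded the 3-month maximum, which again was replicate 12. The change to 28 months was 1.55 ± 0.34 (2.93-fold; edgeR adjusted p = 5.97e-05).

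Among the peptide-exchange genes, H2-DMa and H2-DMb1 followed the classical chains. H2-DMa went from 3.46, 4.98 and 23.7 CPM at 3 months to 5.18, 14.2 and 42.0 CPM at 28 months (1.57 ± 0.27, 2.96-fold, edgeR adjusted p = 6.45e-07). H2-DMb1 went from 1.82, 3.51 and 23.0 CPM to 4.71, 13.1 and 30.8 CPM (1.71 ± 0.28, 3.27-fold, edgeR adjusted p = 2.02e-07). All 18 livers of 28 months were above the 3-month median for both genes.

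H2-DMb2 and H2-Oa had the largest fitted changes and the least even ones. H2-DMb2 was 0.471, 0.829 and 2.70 CPM at 3 months, 0.578, 1.08 and 2.79 at 9, 1.02, 1.77 and 2.78 at 15, 1.20, 2.75 and 57.5 at 24 and 0.785, 2.70 and 31.0 at 28 months. H2-Oa was 0.0876, 0.328 and 0.839 CPM at 3 months, 0.102, 0.445 and 1.44 at 9, 0.155, 0.450 and 1.05 at 15, 0.265, 0.875 and 16.1 at 24 and 0.216, 0.754 and 7.76 at 28 months. The maxima moved far more than the medians, the coefficients of variation reached 197% and 203% at 24 months, and the highest values of both genes came from the same 4 livers: 24 months replicate 13 and 28 months replicates 4, 3 and 2. The changes to 28 months were 2.66 ± 0.44 for H2-DMb2 (6.31-fold, edgeR adjusted p = 3.71e-07; 17 of 18 livers above the 3-month median) and 2.21 ± 0.46 for H2-Oa (4.63-fold, edgeR adjusted p = 2.45e-05; 16 of 18).

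Single livers moved several of these values. Without 3 months replicate 12, in which all 9 members were more than 2 times their group's median, the changes to 28 months were 1.85 to 2.8 and all 9 were called; without it the changes to 24 months were 2.05 to 2.88. Within the preps alone all 9 were called at 28 against 3 months in preps 1 and 3 (1.75 to 3.14 and 2.02 to 3.14), and none in prep 2 (0.64 to 1.21), the prep that holds this liver. In prep 2 without this liver 7 of the 9 were called, with Cd74 at 1.58 (edgeR adjusted p = 0.00442), and H2-DMb2 at 1.5 (0.097) and H2-Oa at 1.09 (0.285) were not. Without 24 months replicate 13, the changes from 3 to 24 months fell from 2.71 to 1.78 for H2-DMb2 and from 2.29 to 1.28 for H2-Oa, both still called, and from 15 to 24 months H2-DMb2 stood at 0.93 (edgeR adjusted p = 0.0356) and H2-Oa at 0.83 (adjusted p = 0.0758), down from 1.84 and 1.82. The liver of 15 months replicate 7 held the highest Cd74 of its age (363 CPM, the next being 190), and without it all 9 were called at 24 against 15 months, Cd74 by 1.75 (edgeR adjusted p = 6.58e-06). Without 24 months replicate 10, which held the 1670 CPM of Cd74, all 9 were again called there, Cd74 by 1.22 (adjusted p = 0.000336). These alternatives were chosen after seeing the data. Leaving out any one of the 34 livers of 3 and 28 months left all 9 called, the lowest change being 1.40 for Ciita without 28 months replicate 4.

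Likeness from liver to liver also differed among the members. Over 83 livers and 12757 genes, on residuals after age and prep, the genes most like Cd74 were H2-Ab1 (r = 0.99), H2-Eb1 (0.98), H2-Aa (0.98), H2-DMa (0.95) and H2-DMb1 (0.94), and Ciita had 0.92. H2-DMb2 and H2-Oa had 0.73 each to Cd74 and 0.92 to each other. Their r to the B cell score was 0.93 and 0.89, against 0.66 for Cd74 and 0.58 for H2-DMb1. The r to the dendritic cell score was 0.86 for Cd74 and 0.69 for H2-DMb2, and the r to the T cell score was 0.9 for Cd74, 0.91 for H2-DMa and for Ciita, 0.82 for H2-DMb2 and 0.79 for H2-Oa. Values are shared among all genes of a library, and these correlations are given as descriptions.

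Beside these genes, B cell markers moved in the liver. Of 10 markers 8 were higher at 28 months, none lower (median change 2.82), led by the B cell kinase Blk (4.04 ± 0.65), the surface antigen Ms4a1 (3.56 ± 0.60) and the antigen receptor component Cd79a (3.01 ± 0.54). Their sum was 5.83, 10.3 and 27.5 CPM at 3 months, 6.83, 14.1 and 37.7 at 9, 9.66, 20.3 and 41.1 at 15, 10.7, 32.7 and 804 at 24 and 7.14, 26.7 and 475 at 28 months; none of the 10 was at 0 throughout. The highest sums of B cell markers were in the livers named above for H2-DMb2, 24 months replicate 13 (804 CPM) and 28 months replicates 4, 2 and 3 (475, 345 and 211 CPM), while 24 months replicate 10, the highest liver for Cd74, had 70.4 CPM. With the B cell score as a further term, an alternative chosen after seeing the data, 8 of the 9 members were still called at 28 against 3 months (54.1% of all genes passed in this fit, 27.9% as higher), Cd74 by 1.05, H2-Aa by 1.03, H2-Ab1 by 1.06, H2-Eb1 by 1.10, H2-DMa by 0.91, H2-DMb1 by 1.20, Ciita by 0.67 and H2-DMb2 by 0.65. H2-Oa was at 0.23 (edgeR adjusted p = 0.785). B cells express these members themselves, so the term is not independent of the values it is set beside.

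**Figure D4:**
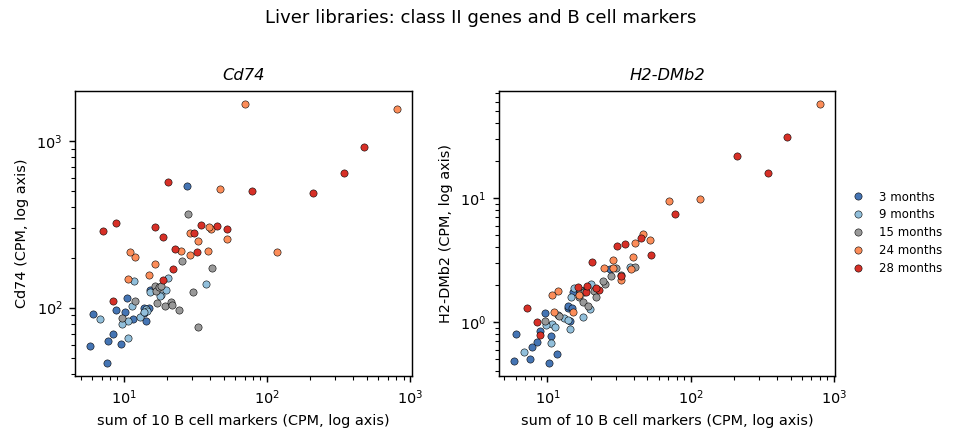
Cd74 (left) and H2-DMb2 (right; CPM, log axes) against the summed B cell markers (CPM, log axis) in each of the 83 liver libraries, coloured by age. H2-DMb2 lies along a narrow band over the whole range of B cell markers, and Cd74 along a wider one, with 24 months replicate 10 high for Cd74 at a B cell sum of 70.4 CPM.

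Other antigen-presenting and immune cells moved in the liver as well. Of 10 dendritic cell markers 8 were higher at 28 months, including the integrin Itgax (1.74 ± 0.34), the transcription factor Batf3 (1.5 ± 0.21) and the homing receptor Ccr7 (1.35 ± 0.33), and 2 were lower, Cd209a and Zbtb46, named here after their values were seen; sums were 13.9, 17.0 and 39.7 CPM at 3 months and 15.7, 27.3 and 42.8 CPM at 28 months. All 7 Kupffer cell markers were higher (median 1.54), with the scavenger receptor Marco at 3.04 ± 0.53, Cd5l at 1.67 ± 0.21 and the phosphatidylserine receptor Timd4 at 1.56 ± 0.20, and sums of 268, 348 and 988 CPM at 3 months against 442, 875 and 4160 CPM at 28 months. Of 9 T cell markers 8 were higher (median 2.05), such as the coreceptor chain Cd8a at 3.04 ± 0.43, with sums of 3.63 to 30.1 CPM at 3 months and 10.1 to 72.1 CPM at 28 months. All 6 monocyte markers were higher (median 1.97; sums 338 to 500 and 418 to 723 CPM), as were 4 of 5 plasma cell markers tested (median 2.72; sums 5.00 to 23.5 and 9.48 to 90.6 CPM). The 3 hepatocyte markers did not pass. Of 5 sinusoid endothelium markers 3 were lower and none higher (sums 236 to 301 and 214 to 322 CPM). The part of each cell type in the class II values was not tested. The B cell term above is no such test, because it is not independent of the members.

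The rest of the pathway was read from lists taken with earlier results of these data known. Among 8 genes of invariant-chain cleavage and antigen processing, 7 were higher in the liver at 28 months and none lower (median 0.82): March1, a ubiquitin ligase that removes class II from the surface, by 1.89 ± 0.26 (median 3.05 to 9.97 CPM), Ctss, the cathepsin that trims the invariant chain, by 1.72 ± 0.23 (36.9 to 119 CPM), and Ifi30, a lysosomal thiol reductase, by 1.59 ± 0.22 (19.4 to 48.6 CPM). In the brain 5 of the 8 were higher and 1 lower (median 0.17). Ctss changed there by 0.62 ± 0.07 (58.1 to 90.4 CPM) and Ifi30 by 0.60 ± 0.10 (2.76 to 3.92 CPM), while March1 was lower by a log2 change of -0.22 ± 0.09. All 6 genes of the costimulation list were higher in the liver (median 1.65), led by Cd40 (1.83 ± 0.31), Cd274 (1.72 ± 0.33) and Cd80 (1.59 ± 0.27). Of 5 tested in the brain 2 were higher, Cd274 (0.41 ± 0.13) and Cd86 (0.39 ± 0.08), and 1 lower, Cd40 (-0.59 ± 0.17). The list also holds ligands that inhibit T cells, Cd274 among them, so it is not a measure of costimulation alone.

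Among 7 factors of class II promoters, those that recruit Ciita, 1 was higher in the liver, Rfx5 by 0.28 ± 0.09 (median 13.7 to 18.1 CPM), and 1 lower, the RFX subunit Rfxank at -0.70 ± 0.13 (26.6 to 17.0 CPM), with a list median of -0.09. In the brain Rfx5 was higher by 0.14 ± 0.05, and Nfya (-0.56 ± 0.08) and Creb1 (-0.31 ± 0.08), subunits or members of the Y-box and X-box binding factors, were lower. Of the interferon gamma list, 6 of 7 genes were tested; the ligand Ifng was at or under 3 counts in every brain library of 3 and 28 months. In the liver 4 of the 6 were higher and none lower (median 0.40), among them the receptor chains Ifngr1 (0.71 ± 0.10) and Ifngr2 (0.34 ± 0.08) and the transcription factor Irf1 (0.71 ± 0.14). In the brain Ifngr1 (0.22 ± 0.04) and Irf1 (0.20 ± 0.06) were higher and Ifngr2 (-0.12 ± 0.04) lower. Among the other class II locus genes, H2-Eb2 rose by 2.83 ± 0.56 and H2-Ob, the partner of H2-Oa, by 2.19 ± 0.46 in the liver. Over all genes tested the median change was 0.01 in each tissue.

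The change from 3 to 28 months was larger in the liver than in the brain for all 9 members. In one edgeR fit over both tissues and 14035 genes, in which 49.2% of genes differed in their change and 27.2% changed more positively in the liver, the difference (liver minus brain, log2) ran from 1.06 ± 0.31 for H2-DMb1 (adjusted p = 0.00235) to 2.06 ± 0.50 for H2-DMb2 (adjusted p = 0.00028), and for Cd74 it was 1.27 ± 0.38 (adjusted p = 0.00367). With each mouse as a block all 9 remained called, with 1.45 for H2-DMb2 and 1.00 for H2-Oa (adjusted p = 0.0348), down from 2.06 and 1.67.

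**Figure D5:**
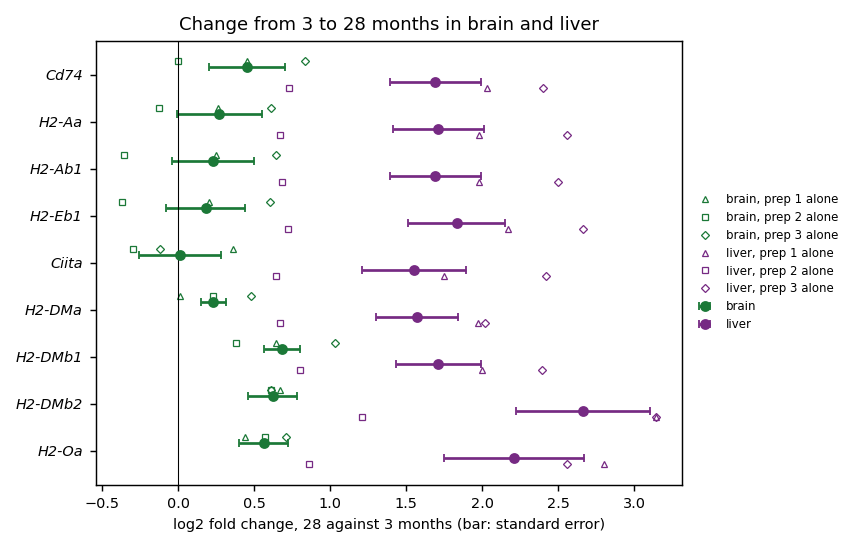
Log2 change from 3 to 28 months of each of the 9 members in brain and liver, as filled points with bars of 1 SE from the edgeR fit of each tissue; open symbols give the fits of preps 1, 2 and 3 alone. The liver changes over all preps lie between 1.55 and 2.66 and the brain changes between 0.01 and 0.68, and prep 2 gives the lowest liver value of every member.

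Levels also differed between tissues at 3 and 28 months, the ages compared. At 3 months 8 of the 9 members differed between liver and brain (88.6% of all genes did, 42.6% being higher in the liver): Cd74 was 28.7-fold higher in the liver (log2 4.84 ± 0.36), whereas H2-DMa was lower in the liver (-0.69 ± 0.24, edgeR adjusted p = 0.00471) and H2-Oa did not pass (0.38 ± 0.44, adjusted p = 0.405). At 28 months all 9 were higher in the liver (88.9% of all genes differed, 43.3% being higher in the liver), Cd74 by 69.3-fold, H2-DMb2 by 17.7-fold, H2-Oa by 4.16-fold and H2-DMa by 0.67 ± 0.21 (adjusted p = 0.00224), the sign of H2-DMa having turned. With each mouse as a block the 28-month differences were 65.7-fold for Cd74, 11.7-fold for H2-DMb2 and 2.62-fold for H2-Oa, all still called. Scaling across tissues assumes that most genes are alike in both, so these levels carry more uncertainty than changes within a tissue. For H2-DMa the overlap with Brd2 adds to this, since reads of Brd2 may be part of its level in either tissue.

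Whether mice high for a member in the brain were also high in the liver was asked within age and prep over the 82 mice with both. For H2-DMb2 r was 0.44 (permutation p = 0.00021, 100000 permutations within age; 0.0182 adjusted over 14035 genes, of which 273, or 1.95%, passed) and Spearman's rho was 0.38 (permutation p = 0.00109, adjusted p = 0.0567). Without the 2 mice farthest from the median brain value r was again 0.44. By prep it was 0.55, 0.24 and 0.49, and by age 0.08, 0.27, 0.13, 0.46 and 0.66 from 3 to 28 months, and so highest in the 2 oldest groups. Mice 2 and 4 of 28 months were among the highest brains for H2-DMb2 (0.805 and 0.958 CPM) and had the highest brain sums of B cell markers (11.7 and 8.04 CPM), and the same mice were among the highest livers for both measures. Without these 2 mice, left out after seeing the data and not the ones left out above, r was 0.36 and rho 0.33. The other 8 members had r of 0.06 to 0.21 and permutation p adjusted of 0.488 or more. Their rho was 0.06 to 0.29, with permutation p adjusted of 0.197 (H2-Oa) or more.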

How the data were processed

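Per the labels' protocols, QIAzol and chloroform served to isolate RNA, and stranded poly(A) libraries were read in pairs of 100 bases. The submitters' processing notes name cutadapt 2.8, HISAT2 2.1.0, SAMtools 1.9, featureCounts (Subread 2.0.1) and the mouse build GRCm38; the annotation release, the strand setting and the treatment of reads with several matches are not given in the sources used here. The authors deposited raw counts per gene, one table per tissue, whose values are whole numbers. Symbols were given to 55144 of 55471 identifiers. The brain of mouse 6 of 3 months was not analysed here.

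Counts were tested with edgeR 4.0.16 (R 4.3.3): genes kept by filterByExpr on age, TMM scaling, and a quasi-likelihood fit with age and prep over all libraries of a tissue, two-sided, with Benjamini-Hochberg adjustment and a threshold of 0.05. The filter left 18711 genes in the brain and 15579 in the liver. SEs were derived from the F statistic, CPM used TMM scaling, and RPKM used the union of exons in the GENCODE M21 annotation of GRCm38. Correlations used log2 CPM (prior count 2) after removal of age and prep. A fit over both tissues had tissue by age and prep within tissue; its alternative with each mouse as a block took the trended dispersion from the fit without mice. The pairing of brain and liver comes from the mouse numbers in the labels; over the 82 pairs the r of deviations from group means ran from -0.15 to 0.26 (median 0.05), and 19 were over 0.1.

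The 9 members were all named. From each other list at most 3 genes per tissue were named, by the largest change between 3 and 28 months among those called with a mean of at least 1 CPM in either age group; genes named otherwise are marked. The members, lists and comparisons were chosen with earlier results of these data known. Alternatives used DESeq2 1.42.0, limma 3.58.1 (voom with quality weights), other scalings and filters, single preps and each library left out. The test was checked on simulated data before use. With totals of 5820000 to 73400000 counts, counting error is small for most members; Ciita and H2-DMb2 in the brain, and H2-Oa in both tissues, with few counts per library, are the exceptions. A floor of 3 counts marks values too low to compare.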

Additional observations from a re-analysis of the deposited data

Results flagged for a closer look

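All 9 members stood out because their change from 3 to 28 months differed between the tissues by a test of the difference itself, the tissue by age term of the edgeR fit over both tissues. The change was more positive in the liver by 1.27 (log2) for the invariant chain Cd74, 1.46 for H2-Aa, 1.5 for H2-Ab1 and 1.69 for H2-Eb1, the classical chains. It was more positive by 1.58 for the coactivator Ciita, 1.36 for H2-DMa, 1.06 for H2-DMb1, 2.06 for H2-DMb2 and 1.67 for H2-Oa. Adjusted p-values of this edgeR test ran from 1.09e-05 (H2-DMa) to 0.00476 (Ciita), and 49.2% of the 14035 genes tested in both tissues differed in this way. This fit held no term for the mouse. With each mouse as a block all 9 remained called, with 1.45 for H2-DMb2 and 1.00 for H2-Oa (edgeR adjusted p = 0.0348).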

How the results depend on the processing

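Among recomputed counts of called members 293 stayed within 1.5 times the value reported and 25 did not. For single members and other lists, 510 recomputed values kept their call and direction (or stayed within 1.5 times), 56 counts moved by more, 24 calls were lost, 3 were gained and 8 signs turned. In the brain, single preps gave fewer calls: 1, 0 and 0 members at 24 against 3 months for preps 1, 2 and 3, 1, 0 and 1 at 28 against 3, and 2, 0 and 1 for any age; fewer libraries enter each fit. With the choroid plexus term the counts were 6, 7 and 3 at 24 against 3, 28 against 3 and 24 against 15 months. At 24 against 15 months DESeq2 called 2, voom 1, the fit of only these ages 1 and the fit without the brain of 28 months replicate 15 called 1 (0 to 1 over all fits with one library left out); voom called 1 at 15 against 3 months. In the liver, prep 1 gave 2 calls at 24 against 3, 0 at 24 against 15 and 1 at 28 against 24 months, prep 3 gave 5 at 24 against 15 and prep 2 gave 0 at 28 against 3 months; the fit of 2 ages called 1 at 15 against 3 months. Leaving out the 4 livers of highest class II level, chosen by the outcome itself and after seeing the data, gave 8 at 15 against 3 and 1 at 28 against 24 months. The cause of these shifts was not tested. Signs turned only for brain members that had not passed: in prep 2 H2-Aa was -0.13, H2-Ab1 -0.36, H2-Eb1 -0.37 and Ciita -0.30, and Ciita was -0.12 in prep 3, -0.03 without the prep term, -0.03 with a replicate block and -0.07 to 0.12 with one library left out. Replicate numbers name different mice at different ages: deviations of same-numbered brains of 3 and 28 months had r of -0.36 to 0.30 (15 pairs) and of livers -0.35 to 0.28 (16 pairs), and 0 and 2 samples correlated best with their own number; the block moved no count of called members by more than 1.5 times. Over the alternatives other than single preps, the calls in other brain lists at 28 against 3 months ranged from 0 to 1 for the other locus genes and for border macrophages, 1 to 4 for promoter factors and for monocytes, and 4 to 8 for antigen processing and for microglia; liver lists moved by at most 2. DESeq2 was run for each pair of ages but not for the joint test of the age terms. Depth limits Ciita, H2-DMb2 and H2-Oa in the brain and H2-Oa in the liver most.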
